A study of Homo sapiens with 4 samples.

Results

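The clustered replication-dependent histone genes were examined in Huh1 and Huh7, both long-established cell lines from human hepatocellular carcinoma. They were taken as every gene row whose symbol begins with HIST1H, HIST2H, HIST3H or HIST4H, which gave 63 of the 18398 gene rows measured in each library. The set was selected on its RPKM values in Huh7, chosen by the higher level seen there with CDCA8siRNA than with NCsiRNA, so the values of that contrast are given as a description and nothing is supported with them. By class there were 6 genes of the linker histone H1, 15 of H2A, 18 of H2B, 11 of H3 and 13 of H4. By cluster, 54 belonged to HIST1 on chromosome 6, 5 to HIST2 and 3 to HIST3 on chromosome 1, and 1 to HIST4 on chromosome 12.

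Histone proteins package DNA, with H2A, H2B, H3 and H4 forming the core around which DNA is wound and H1 binding the linker between cores. The clustered genes are transcribed mainly in S phase, when new chromatin is assembled, and most of their mRNAs end in a conserved stem-loop bound by SLBP in place of a poly(A) tail. Several of the genes also have annotated longer transcripts that run past the stem-loop or are spliced around it, and such forms can carry a poly(A) tail.

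The 4 groups were Huh1 with NCsiRNA, Huh1 with CDCA8siRNA, Huh7 with NCsiRNA and Huh7 with CDCA8siRNA, where NCsiRNA is a negative control siRNA and CDCA8siRNA is directed at CDCA8 (borealin, a subunit of the chromosomal passenger complex). Total RNA was taken 48 h after transfection with 15 nM siRNA, and libraries were made with the Illumina TruSeq RNA kit, which in its standard form captures RNA by the poly(A) tail. How much of each histone mRNA carried a tail was not measured. Each group was 1 library, so the spread between replicates could not be measured and no difference within a line or between the lines could be tested. An effect shared by both lines could be fitted with 1 residual degree of freedom, which was not done. Each cell line is a single established line, and 1 siRNA against CDCA8 was sequenced.

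CDCA8 itself had 24.1 RPKM (reads divided by transcript length in kilobases and by the size of the library) in Huh1 with NCsiRNA and 5.86 with CDCA8siRNA, which left 24.3%. In Huh7 it had 51.5 and 7.36 RPKM, which left 14.3%. Depth, estimated from the values, was 12197606 to 13384836 reads per library, and 2568 to 3169 gene rows per library were at 0. The hepatocyte marker ALB was present in all libraries, at 3447, 2684, 1166 and 721 RPKM for Huh1 with NCsiRNA, Huh1 with CDCA8siRNA, Huh7 with NCsiRNA and Huh7 with CDCA8siRNA, the order used for every set of 4 values. AFP, another hepatocyte marker, had 24.8, 27.5, 865 and 715 RPKM, so it was higher in Huh7 where ALB was lower. Of the 7 hepatocyte markers listed, 6 were lower with CDCA8siRNA in Huh1 and 7 in Huh7. Over all genes past the filter used below, 4915 of 10940 were lower in Huh1 and 5257 of 11565 in Huh7. The leukocyte marker PTPRC was at most 0.417 RPKM, while the macrophage marker CD68 had 23.3, 16.5, 3.71 and 3.73 RPKM. COL1A1, a fibroblast collagen, had 0.115, 0.122, 107 and 125 RPKM, and COL1A2 had 0.0138, 0.0280, 31.4 and 56.9 RPKM. The endothelial marker PECAM1 had no gene row. The part of these shifts in the histone values was not tested. In bulk RNA, fewer cells in a given phase or of a given type and less RNA per cell cannot be told apart.

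The stem-loop shows what the members share at the ends of their mRNAs, so its letters are given by class, with the paired arms in capitals. In the GENCODE release 29 transcripts (GRCh38) the histone stem-loop was searched as a 16-base stretch that opens with GG and closes with CC. Its arms of 6 bases had to pair exactly, with T and A beside a loop of 4 (T, any base, T, any base). It was found in 25 of the 63 genes (39.7%), against 95 of 83129 protein-coding transcripts (0.114%). The forms found were:
H2A, H2B and H3, 13 genes: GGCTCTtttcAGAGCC
H2B and H3, 5 genes: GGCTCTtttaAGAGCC
H4, 5 genes: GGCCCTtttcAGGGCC
HIST1H4I: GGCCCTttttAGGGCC
HIST1H3E: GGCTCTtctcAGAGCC
The outer GG and CC and the T and A beside the loop were set by the search. The C after GG and the G before CC were the same in all forms, and the H4 forms differed from the others inside the stem. For 33 of the 38 genes without a match the annotation held the coding letters alone, so the stretch where the stem-loop lies could not be read. In 18 genes a listed transcript went on for more than 100 bases past the stem-loop, by 116 to 1917 bases, and 11 of these reached 1 RPKM in some library. Of the 7 genes whose transcripts ended within 100 bases of it, 4 reached 1 RPKM. Among the 38 without a readable stem-loop, 10 did.

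The promoters of the H2B genes that lead the values below are shown in 30-base stretches, with the octamer ATTTGCAT and the TATA box TATAAA in capitals. Sequences are from RefSeq on GRCh38.p14, read along the strand of the gene, and each begins at the octamer except that of HIST1H2BD, which ends at its TATA box:
HIST1H2BK (chr6:27146875-27146904, minus strand): ATTTGCATgagaggtcctaTATAAAaacga
HIST2H2BE (chr1:149886699-149886728, minus strand): ATTTGCATaaggtggtTATAAAagaatcag
HIST1H2BG (chr6:26216707-26216736, minus strand): ATTTGCATgaaaggccTATAAAaggagaga
HIST1H2BJ (chr6:27132813-27132842, minus strand): ATTTGCATaagcgattctaTATAAAagcgc
HIST1H2BC (chr6:26124020-26124049, minus strand): ATTTGCATagctctgcccacggatgacaac
HIST1H2BD (chr6:26158069-26158098, plus strand): ttaacctcatttgaataccgcatcTATAAA
In HIST1H2BK, HIST2H2BE, HIST1H2BG and HIST1H2BJ the octamer began 46 to 48 bases before the transcription start and the TATA box followed it within the stretch. HIST1H2BC had its octamer 123 bases before the start, with no TATAAA behind it. HIST1H2BD held no exact octamer in the window read. Searched on both strands from 250 bases before to 50 bases after the start, the octamer was present in 25 of the 58 members with a RefSeq promoter (43.1%), against 1.77% of all 35116 promoters. All of these were H2A genes (11 of 14) or H2B genes (14 of 18), while none of the 6 H1, 9 H3 and 11 H4 promoters had it. Windows of neighbouring H2A and H2B genes can overlap. The same octamer then counts for both genes, as it does for HIST1H2AC and HIST1H2BC. TATAAA was found in 67.2% of the member promoters and 11.5% of all, and CCAAT in 86.2% and 34.6%. No match of one overlapped a match of another in these promoters. CCAAT was present in every H1, H2A, H2B and H3 promoter read and in 3 of 11 for H4. No promoter entry was matched for HIST1H3I, HIST1H3J, HIST1H4A, HIST1H4C and HIST1H2AH.

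Most members were close to 0 in every library. Of the 63, 25 reached 1 RPKM in at least 1 library (1 H1, 8 H2A, 8 H2B, 3 H3 and 5 H4), 22 of them in HIST1, 2 in HIST2 and 1 in HIST3. The other 38 had at most 0.903 RPKM, and 5 of these were at 0 in all 4 libraries. The number at 1 RPKM or more was 21 in Huh1 with NCsiRNA, 19 in Huh1 with CDCA8siRNA, 9 in Huh7 with NCsiRNA and 22 in Huh7 with CDCA8siRNA. The Huh7 control library had the fewest members at 1 RPKM or more, and it was the lowest of the 4 libraries for 21 of the 25. Over all genes, 10750 were at 1 RPKM or more in Huh1 with NCsiRNA, 10816 in Huh1 with CDCA8siRNA and 11255 in Huh7 with NCsiRNA. The set was chosen for lower values in Huh7 with NCsiRNA than with CDCA8siRNA, so the low member counts there are partly built in.

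Fold changes were differences of log2(RPKM + 1), which understates the change of genes with low values, and were read where at least 1 of the 2 libraries had 1 RPKM. In Huh7, 22 members passed that filter, and 13 of these passed through the CDCA8siRNA library alone, so that they had to be higher there. Of the 22, 12 were at least 2-fold higher with CDCA8siRNA and 0 were at least 2-fold lower. Over all 11565 genes past the filter, 0.873% were that much higher and 0.7% lower. Because this contrast chose the members, nothing is read from that difference. Their median log2 fold change was 1.02, against 0.03 over all genes. It was 1.71 with a pseudocount of 0.1 RPKM and 0.26 with no filter. Just inside the 2-fold line were HIST1H2BK at 1.01 and HIST1H3H at 1.02, and just outside it was HIST1H2AG at 0.99. Among the 22, HIST1H2BH alone was below 0, at -0.38.

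In Huh1, which did not enter the choice, 22 members passed as well. None was at least 2-fold higher with CDCA8siRNA, where 0.32% of all 10940 genes were, and 2 were at least 2-fold lower (HIST1H3H and HIST1H4D), where 0.174% of all genes were. Both passed through the NCsiRNA library alone, so they had to be lower with CDCA8siRNA. Of the 22, 14 were above 0 and 8 below, with a median of 0.15 against 0.02 over all genes. Over all 10940 genes, 6025 were above 0 and 4915 below, so the split of the members is not read as a trait of theirs. The 2 lines thus differed in their histone values, and with 1 library a group that difference was not tested.

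To look at Huh7 without picking genes by their Huh7 values, members were also taken by at least 1 RPKM in Huh1 with NCsiRNA, a rule added after the data had been seen. All 21 genes so taken were above 0 in Huh7, with 11 of them at least 2-fold higher and a median of 1.01. The lowest, HIST2H2AC at 0.02, was at -0.06 with quantile normalization. Over all members above 0 RPKM in a Huh7 library, most of them low, the split was closer to even, with 31 of 52 higher and 21 lower (59.6% higher, against 55.8% of all genes) and a median of 0.26. Of the 10750 genes of the whole table with at least 1 RPKM in Huh1 with NCsiRNA, 53.5% were above 0 in Huh7. Of these 10750, 0.716% were at least 2-fold higher in Huh7 and the median was 0.02. The members were still the set chosen for this contrast, so these values remain a description.

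**Figure D1:**
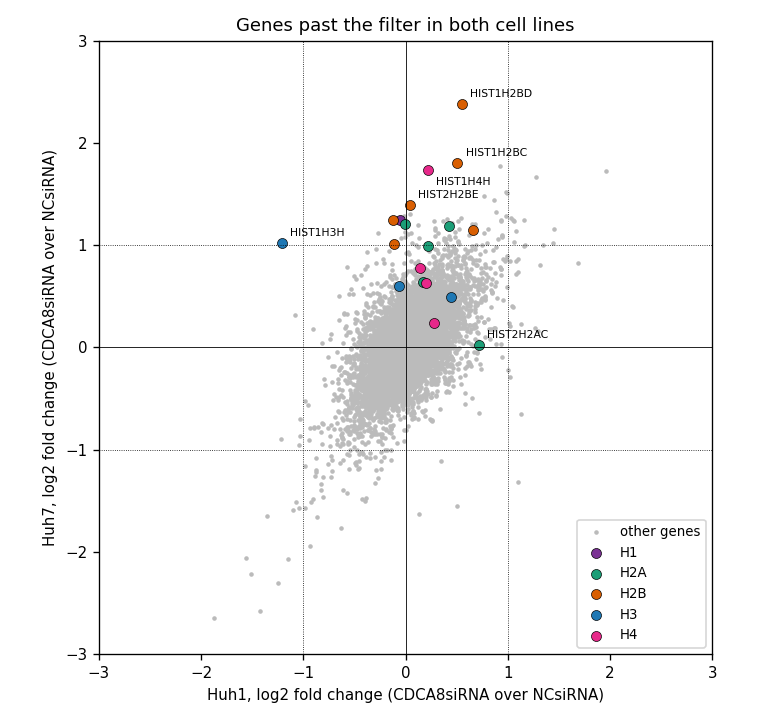
Log2 fold change of CDCA8siRNA over NCsiRNA in Huh1 (x axis) and Huh7 (y axis) for genes past the filter in both lines, with histone genes coloured by class, other genes in grey and dotted lines at 2-fold. Of the histone genes only HIST1H3H lies beyond 2-fold in Huh1, on the lower side, while HIST1H2BD is the highest of all points in Huh7.

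The linker histone class was carried by HIST1H1C, which encodes the H1.2 linker histone, with 45.7, 43.9, 6.83 and 17.6 RPKM. The 2 Huh1 values were both above the 2 Huh7 values. Within Huh7 the CDCA8siRNA value was 2.58 times the control value, with a 95% counting interval of 1.89 to 3.65 (Clopper-Pearson, here and below on estimated read numbers and covering counting error only), and within Huh1 the ratio was 0.959 (0.829 to 1.11). On the log2 scale these were 1.25 and -0.06. The other 5 H1 genes stayed at or below 0.418 RPKM.

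HIST1H2BK, of the H2B class, was the highest of the clustered histone mRNAs in all 4 libraries. On the log2(RPKM + 1) scale the H2B genes HIST1H2BD and HIST1H2BC had the highest fold changes of the set in Huh7. With a pseudocount of 0.1 RPKM, HIST1H4H was above HIST1H2BD in Huh7 (3.30 against 2.66). HIST1H2BK had 108, 99.9, 31.5 and 64.7 RPKM, so that Huh7 with CDCA8siRNA lay between the Huh7 control and both Huh1 libraries. Its Huh7 ratio was 2.05 (1.68 to 2.52) and its Huh1 ratio 0.925 (0.817 to 1.05). Of its 50-base windows, 74.1% also occur in transcripts of other genes, so its reads could be shared with near-identical copies and its level is uncertain.

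HIST1H2BD had 7.78, 11.8, 3.33 and 21.5 RPKM. Here Huh7 with CDCA8siRNA was the highest library and Huh7 with NCsiRNA the lowest. The Huh7 ratio was 6.46 (4.44 to 9.70) and the log2 fold change 2.38, which was rank 1 of all 11565 genes in Huh7. With a pseudocount of 0.1 RPKM the rank was 4. In Huh1 the ratio was 1.52 (1.14 to 2.04). HIST1H2BD has 2 coding transcripts in the annotation, 1 of them a spliced form of 789 bases, and 5.95% of its windows are shared with other genes.

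HIST1H2BC showed the same order of libraries at a lower level, with 2.75, 4.33, 1.50 and 7.72 RPKM. Its ratio was 5.16 (2.71 to 11.8) in Huh7 and 1.57 (0.895 to 2.90) in Huh1. Its log2 fold change in Huh7, 1.80, was rank 2 of all genes.

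HIST2H2BE, on chromosome 1, had 3.99, 4.14, 1.27 and 4.97 RPKM. The 2 Huh1 libraries were within 1.04 times of each other, while the Huh7 ratio was 3.91 (2.67 to 5.89). It is among the members with the most reads, at an estimated 34.0 and 134 in the 2 Huh7 libraries, since its annotated transcript runs 1729 bases past the stem-loop.

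HIST1H2BG had 1.68, 3.24, 1.47 and 4.49 RPKM, with log2 fold changes of 0.66 in Huh1 and 1.15 in Huh7. HIST1H2BJ had 3.59, 3.23, 0.852 and 3.41 RPKM, with -0.12 and 1.25. For HIST1H2BJ the CDCA8siRNA value in Huh7 lay within the range of the Huh1 libraries, and the low library was Huh7 with NCsiRNA.

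HIST1H2BH went the other way. It was at 0 in both Huh1 libraries and had 2.31 RPKM in Huh7 with NCsiRNA and 1.55 with CDCA8siRNA, a ratio of 0.671 whose interval (0.260 to 1.74) includes equal levels. HIST1H2BN, which overlaps HIST1H2AK on the opposite strand and HIST1H2AL on its own strand in the annotation, had at most 1.09 RPKM. The kit in its standard form does not mark strand, so reads from that overlap could not be assigned to 1 gene.

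H2A levels were led by HIST1H2AC, with 13.0, 17.8, 7.66 and 18.7 RPKM. Its Huh7 ratio was 2.44 (1.75 to 3.52) and its Huh1 ratio 1.37 (1.04 to 1.83). HIST3H2A, in the small HIST3 cluster, was at 0 in both Huh1 libraries and had 0.496 and 3.45 RPKM in Huh7, a ratio of 6.96 (2.19 to 38.1). It was seen in no Huh1 library and its high value came from Huh7 with CDCA8siRNA. HIST2H2AC had 1.39, 2.93, 1.31 and 1.35 RPKM, so that its log2 fold change was 0.72 in Huh1 and 0.02 in Huh7. Its highest library was Huh1 with CDCA8siRNA.

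HIST1H2AD had 1.16, 1.15, 0.356 and 2.13 RPKM, with log2 fold changes of -0.00 and 1.20, but 98.0% of its windows are shared with other genes. HIST1H2AE, HIST1H2AG, HIST1H2AI and HIST1H2AK, named for reaching 1 RPKM, had a highest value of 1.61 RPKM and Huh7 log2 fold changes of 0.41 to 0.99, of which HIST1H2AI and HIST1H2AK did not pass the filter in Huh7.

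H3 genes were low throughout. HIST1H3H had 2.05, 0.320, 0.173 and 1.38 RPKM, which is high in Huh1 with NCsiRNA and in Huh7 with CDCA8siRNA and low in the other two libraries. Its log2 fold change was -1.21 in Huh1 and 1.02 in Huh7. In Huh1 the counting interval of the ratio was 0.017 to 0.689, from an estimated 13.4 and 2.05 reads. HIST1H3H passed the Huh1 filter through NCsiRNA alone, so it had to be lower with CDCA8siRNA, and nothing is read from that interval. In Huh7 the interval ran from 1.07 to 353, from an estimated 1.03 and 8.22 reads, so the size there is barely bounded. The gene passed the Huh7 filter through CDCA8siRNA alone. HIST1H3E had 1.78, 2.79, 0.710 and 1.41 RPKM, and HIST1H3B reached 1.90 RPKM at most.

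Among H4 genes, HIST1H4H had 4.39, 5.27, 0.219 and 3.05 RPKM. The Huh7 control value stands for about 1.06 reads, so its ratio of 13.9 has an interval of 2.30 to 628. HIST1H4K had 2.11, 2.78, 0.926 and 1.27 RPKM and HIST1H4J 2.10, 2.55, 0.461 and 1.26 RPKM, and 100% and 81.2% of their windows are shared with other genes. HIST1H4D had 1.02, 0, 0.223 and 0.666 RPKM, which rests on an estimated 4.25 reads in its highest library. HIST1H4E reached 1.41 RPKM at most.

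Leaving out genes with 50% or more of their windows shared, 18 members passed the filter in Huh7 and 10 of these were at least 2-fold higher.

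Summed over members, the H2B class had 130, 129, 43.9 and 111 RPKM, the H1 class 45.8, 44.2, 7.68 and 18.3, the H2A class 21.6, 27.7, 12.8 and 30.1, the H4 class 13.0, 13.4, 3.09 and 8.62, and the H3 class 6.67, 6.57, 3.17 and 4.18. In each class the Huh7 control library was the lowest, which the choice of the set partly built in. The sum over the set was 217, 220, 70.6 and 173 RPKM, a ratio of 1.02 in Huh1 and 2.45 in Huh7. Without HIST1H2BK and HIST1H1C the sum was 63.4, 76.7, 32.2 and 90.5 RPKM, which is 29.2%, 34.8%, 45.7% and 52.4% of the whole. By class the Huh7 ratio was 2.79 for H4, 2.54 for H2B, 2.39 for H1, 2.36 for H2A and 1.32 for H3. These ratios lean on single genes. For H4 this is HIST1H4H, with an estimated 1.06 reads in the Huh7 control, and for H1 it is HIST1H1C. For H2B it is HIST1H2BK, with 74.1% of its windows shared, so the order of the classes is not read as a result.

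**Figure D2:**
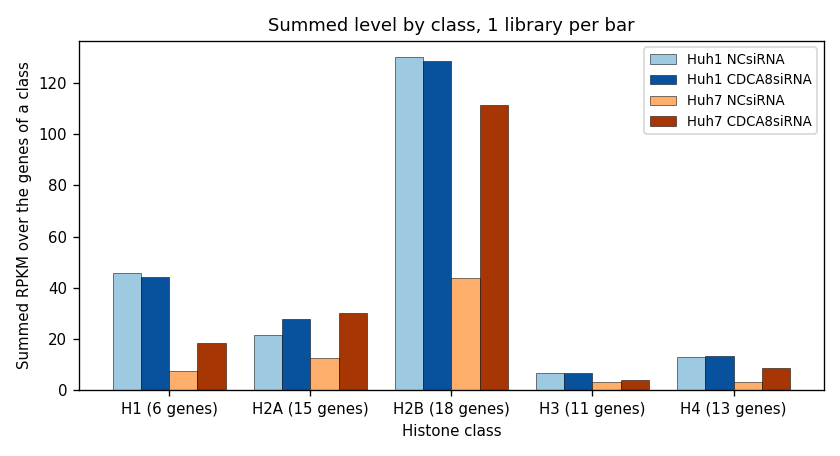
Summed RPKM of the members of each histone class in the 4 libraries on a linear axis from 0, with 1 bar per library and no error bars, since each group is 1 library. Huh7 with NCsiRNA is the lowest library in every class, and the H2B class has the tallest bars in all 4 libraries. The choice of the set partly built in the low Huh7 control.

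The lines were also compared within each siRNA. With NCsiRNA, 22 members passed, and 9 of them were at least 2-fold lower in Huh7 than in Huh1 and 1 (HIST1H2BH) at least 2-fold higher. Over all 11896 genes 10.2% were that much lower and 17.0% higher. At 1 RPKM or more were 21 members in Huh1 with NCsiRNA and 9 in Huh7 with NCsiRNA. Most of the 22 thus passed through Huh1 alone and had to be lower in Huh7, so nothing is read from the difference. The median log2 difference was -0.85 for members and 0.14 for all genes. With CDCA8siRNA, 23 members passed, with 1 (HIST1H1C, -1.27) at least 2-fold lower and 2 (HIST1H2BH, 1.35, and HIST3H2A, 2.15) at least 2-fold higher, against 10.1% and 17.4% of all 12005 genes. The medians were 0.06 and 0.14. Of the 25 named genes, 22 were lower in Huh7 than in Huh1 with NCsiRNA and 12 with CDCA8siRNA. Over all genes past the filter, 5094 of 11896 and 5153 of 12005 were lower. The 25 were named for reaching 1 RPKM in any library, most often not the Huh7 control, so the count of 22 is partly built in. The comparison of lines with NCsiRNA and the Huh7 comparison of siRNAs share the Huh7 control library, so a low value there enters both. Whether that library was low by its culture, its preparation or its cell line cannot be told apart.

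Many H2A and H2B genes lie head to head, with starts a short distance apart and a shared promoter between them. By RefSeq positions 11 such pairs were found, with starts 194 to 248 bases apart. HIST1H2BC and HIST1H2AC, 246 bases apart, both had higher values with CDCA8siRNA in Huh7, at log2 fold changes of 1.80 and 1.18, and both were above 0 in Huh1. HIST1H2BJ and HIST1H2AG, 248 bases apart, had 1.25 and 0.99 in Huh7. HIST1H2BG and HIST1H2AE, 233 bases apart, had 1.15 and 0.64.

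Other pairs parted. HIST2H2BE and HIST2H2AC start 236 bases apart, and in Huh7 the former went from 1.27 to 4.97 RPKM and the latter from 1.31 to 1.35. HIST3H2A went from 0.496 to 3.45 RPKM while HIST3H2BB, 230 bases away, went from 0.181 to 0.379, so both were higher with CDCA8siRNA. The HIST3H2BB values stand for an estimated 1.01 and 2.12 reads, and the interval of its ratio was 0.104 to 117. HIST1H2AD went from 0.356 to 2.13 RPKM and HIST1H2BF, 223 bases away, from 0.572 to 0. The HIST1H2BF control value stands for an estimated 3.30 reads, and 98.0% of the windows of HIST1H2AD are shared with other genes. HIST1H2AA and HIST1H2BA, known as testis forms, were at 0 in all libraries.

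**Figure D3:**
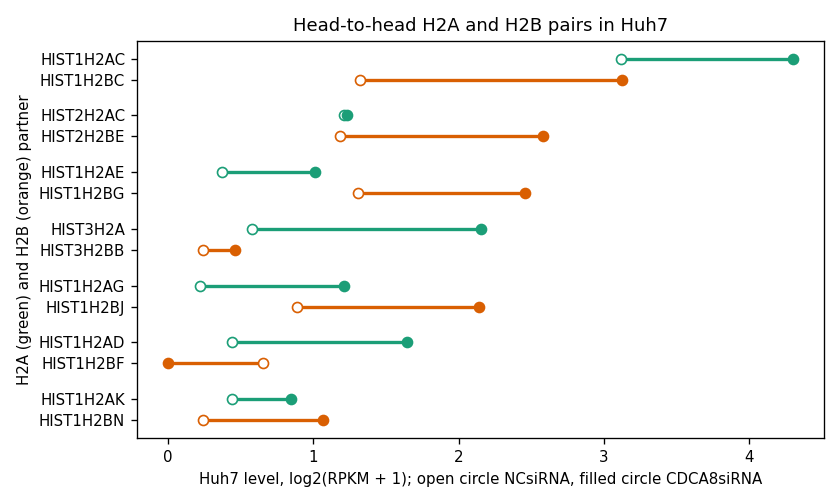
Level in Huh7 as log2(RPKM + 1) with NCsiRNA (open circles) and CDCA8siRNA (filled circles) for the 7 head-to-head pairs in which a gene reached 1 RPKM in Huh7, with H2A genes in green and H2B genes in orange. Both genes of the pair HIST1H2AC and HIST1H2BC are higher with CDCA8siRNA, whereas the line of HIST2H2BE is long and that of HIST2H2AC has almost no length.

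The genes that act on histone mRNAs were then read from lists of known roles. SLBP, which binds the stem-loop and is needed for the processing and translation of these mRNAs, had 32.7, 17.3, 79.3 and 33.5 RPKM. It was lower with CDCA8siRNA in both lines, by log2 fold changes of -0.88 and -1.22. The SLBP value was highest in the Huh7 control library. The summed level of the members had a ratio of 1.02 in Huh1 and 2.45 in Huh7. A link between SLBP and the histone values was not tested. Of 17 genes of histone mRNA processing and decay, all past the filter, SLBP was the 1 gene at least 2-fold different in Huh7 and 0 were in Huh1. In Huh7, 5 of the 17 were above 0 and 12 below, while 6308 of all 11565 genes were above 0 and 5257 below.

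NPAT, the coactivator of clustered histone genes at the histone locus body, had 6.47, 5.32, 4.72 and 3.09 RPKM. CASP8AP2 (FLASH), which acts in transcription and processing there, had 6.83, 6.66, 7.18 and 7.19 RPKM. Neither reached 2-fold in either line, nor did any of the 11 genes of the control of histone gene transcription or the 16 of histone chaperones and assembly. Histone variants encoded outside the clusters, which have poly(A) tails and introns in most cases, gave a comparison at the same protein families. Of 16 listed, 12 passed the filter in Huh7, and 3 were above 0 and 9 below, with a median of -0.14 and none at 2-fold. Over all 11565 genes, 6308 were above 0 and 5257 below, with a median of 0.03. H2AFZ, the H2A.Z variant, had 328, 310, 444 and 385 RPKM, and H1F0, a linker histone of resting cells, had 53.7, 66.7, 85.3 and 77.2 RPKM. H2AFJ was the variant with the highest log2 fold change in Huh7, at 0.57.

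**Figure D4:**
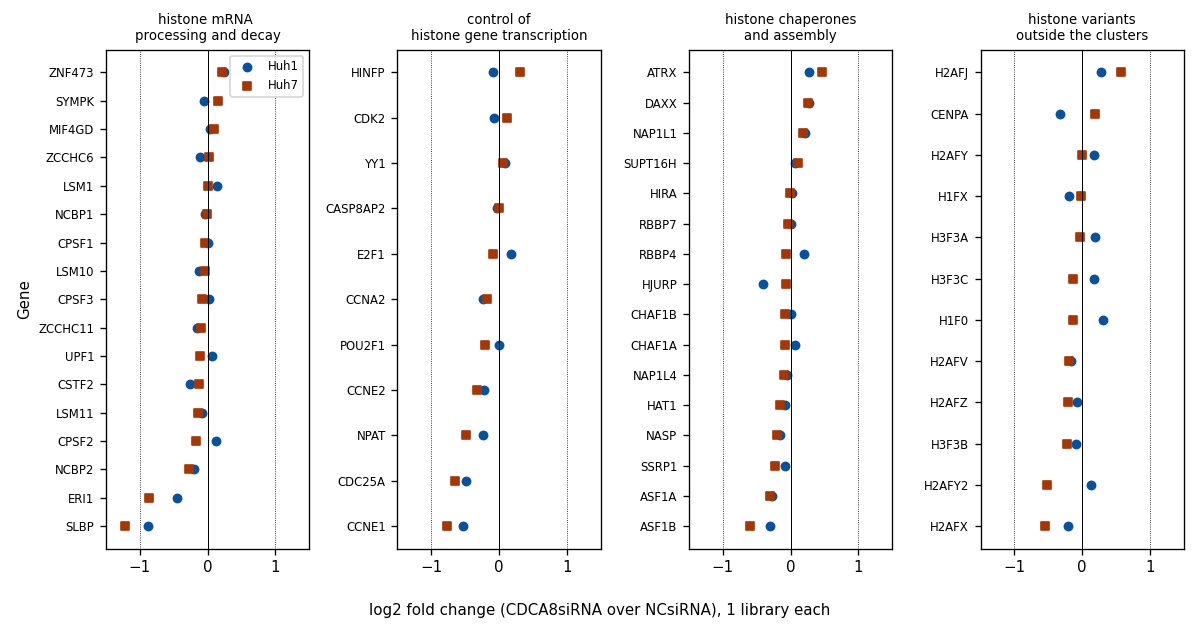
Log2 fold change of CDCA8siRNA over NCsiRNA in Huh1 (circles) and Huh7 (squares) for genes past the filter in both lines, in 1 panel each for histone mRNA processing and decay, transcription control, chaperones and variants outside the clusters, with dotted lines at 2-fold. SLBP in Huh7, at -1.22, is the 1 point beyond a dotted line.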

How the data were processed

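RNA of 4 libraries, 1 per group, was examined. The authors deposited 1 value per gene row, with no unit stated, and these behave as RPKM, since value times transcript length falls on whole multiples of 1 constant per library. The submitters' processing notes name CASAVA 1.8.2, TopHat2 2.0.9 and hg19. The counter, the annotation, the treatment of reads aligned to several places and filters are not given in the sources used here. The siRNA dose came from the study's methods and the time from its legend on the sequenced cells. Depth came from that constant.

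Each fold change was log2(RPKM + 1) in 1 library minus that in another, with a minimum of 1 RPKM in at least 1 of them and a line at 2-fold. No test was run, since no group had a replicate. Reads per gene were estimated from RPKM and the shortest length in GENCODE release 29 (GRCh38), which may differ from the authors' lengths, and ratios were given 95% Clopper-Pearson intervals. Gene positions and promoters are on GRCh38 and were not converted from hg19.

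Every member at 1 RPKM or more in any library was named, and the 15 highest and those at 2-fold in either line got all 4 values. Of the listed pathway genes, SLBP, NPAT, CASP8AP2 and any at 2-fold were named, and H2AFZ, H1F0 and H2AFJ were added as examples after their values were seen. The members and lists were chosen with earlier results of these data known. Alternatives were a pseudocount of 0.1, no filter, a minimum of 5 RPKM, upper quartile scaling and quantile normalization. Steps were tested on simulated data. The work was done in Python 3.11.15 (scipy 1.17.1, pandas 2.3.3, numpy 2.4.6, matplotlib 3.10.9).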

Additional observations from a re-analysis of the deposited data

Results flagged for a closer look

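Among the 19 members past the filter in both lines, 6 had opposite signs: the CDCA8siRNA library was above the control in Huh7 and below it in Huh1. The share of all genes with opposite signs was not computed, so the count is not read as a trait of the members. With 1 library per group, the difference between the lines was not tested. The Huh7 log2 fold change minus that of Huh1 was 2.23 for HIST1H3H, 1.37 for HIST1H2BJ, 1.31 for HIST1H1C, 1.21 for HIST1H2AD, 1.13 for HIST1H2BK and 0.66 for HIST1H3B. Of these 6, all but HIST1H3H had a Huh1 value within 0.12 of 0. HIST1H4D (-1.01 in Huh1 and 0.45 in Huh7) and HIST1H2AI (-0.30 and 0.41), which did not pass the filter in Huh7, had opposite signs as well.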

How the results depend on the processing

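No median or 2-fold call of a member reversed. With a pseudocount of 0.1 RPKM the member median was 1.71 in Huh7 and 0.24 in Huh1, 1 member was at least 2-fold higher in Huh1 and 17 were at least 2-fold lower in Huh7 than in Huh1 with NCsiRNA. Genes at 2-fold over the whole table then went from 35 higher and 19 lower to 107 and 57 in Huh1, and from 101 and 81 to 269 and 153 in Huh7. Without a filter the medians were 0.26 in Huh7 and 0.045 in Huh1. With a minimum of 5 RPKM, 5 members were at least 2-fold higher in Huh7 with CDCA8siRNA, and 0 were higher and 3 lower in Huh7 than in Huh1 with NCsiRNA, since fewer genes are read. Quantile normalization gave a Huh1 median of 0.029, and moved the median of all genes between the lines from 0.14 to -0.00 and the split from 2028 higher and 1211 lower to 1644 and 1504, with 13 members lower. It moved the Huh1 split to 22 and 20. Members at least 2-fold higher in Huh7 with CDCA8siRNA numbered 18 with a pseudocount of 0.1 RPKM, 10 with upper quartile scaling and 11 with quantile normalization, against 12 as reported. Of 156 values of named and pathway genes, 9 took the other sign with upper quartile scaling and 13 with quantile normalization, the members among them being HIST1H2AK and HIST2H2BE in Huh1 and HIST2H2AC in Huh7, all close to 0. No paired analysis was possible because the labels give no replicate numbers and each group is 1 library, and no replicate could be left out. Depth limits the low members, several of which rest on fewer than 5 reads.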
